A study of Mus musculus with 2 samples.

Results

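The heat shock proteins and their DNAJ cochaperones were followed across the 11 cell clusters of gastric tumors raised in mice by injecting mouse dysplastic stem cells. Members were taken by name from a table of the authors' own comparisons: symbols of the HSP70, HSP110, HSP90, small heat shock, Hspd1 and Hspe1 genes and of DNAJ classes A, B and C. The patterns matched 63 names. Hspa5 and Dnajb9, which belong to the unfolded protein response, and 2 pseudogene names were left out. No other gene was removed for that response, so members of the endoplasmic reticulum that were kept may belong to it too. The choice gave 59 members (20 heat shock and 39 DNAJ genes) among 18319 genes named in the table. Single cells were captured in droplets on the inDrop platform from 2 libraries of female NuJ mice, a nude strain without a thymus: a cystic adenocarcinoma taken 10 weeks after injection of the cells called DP-DSC, and a tubular adenocarcinoma taken 13 weeks after it. Each tumor type has a single library and so no replicate. The table separates clusters but not tumors. Cystic and tubular tumors could therefore not be compared, and the values below have no error across animals.

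Heat shock proteins are chaperones that keep other proteins folded, and many of them are induced by heat or other protein damage through heat shock factor 1. HSP70 proteins bind and release unfolded stretches in a cycle driven by ATP. DNAJ proteins, named for the J domain that they share, bring clients to HSP70 and start its ATP hydrolysis, and HSP110 proteins exchange the spent nucleotide. HSP90 proteins act later on kinases, receptors and other clients, the small heat shock proteins hold damaged proteins without ATP, and Hspd1 with its lid Hspe1 forms the folding chamber of the mitochondrial matrix. Several of these genes are also induced when tissue is dissociated into single cells.

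The table lists for each cluster the genes whose deposited fold, on a linear scale, is above 1.5, and beside it a p-value. Listed means that the table gives the gene for that cluster. Raised means a deposited fold of at least 2 together with a p of 0.05 or less. The sources used here give neither the reference of the fold nor the depth per cell, and a gene that is not listed may have been lower, equal or slightly higher. By marker lists, cluster 4 had 10 of 10 macrophage genes raised. Cluster 8 had the same 10 macrophage genes and 7 of 8 dendritic genes raised. Cluster 10 had 6 of 7 neutrophil genes raised, together with 5 of 7 T and NK genes and 5 of 10 macrophage genes. Cluster 11 had 8 of 8 fibroblast genes raised, and cluster 2 had 5 of 5 erythroid genes raised. Clusters 6 and 9 each had 7 of 7 gastric surface mucous genes and 5 of 9 general epithelial genes raised, and cluster 3 had 4 of 7 and 4 of 9. Clusters 1, 5 and 7 had no list with more than 2 raised members. The label "tumor cells" therefore covers clusters with markers of immune, stromal and red cells.

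Heat shock factor 1 binds repeats of the letters GAA and TTC, and the promoters of the members that carry these repeats are shown first, since the members with them were not all raised in the same cluster. RefSeq promoter windows (GRCm38.p6, 250 bases before and 50 after each annotated start) were matched by symbol for 46 of the 59 members. The letters GAANNTTC or TTCNNGAA, each of which is its own reverse complement, were searched on the sense strand, which covers both strands, and overlapping matches were counted separately. At least 1 match lay in the windows of 14 of the 46 members (30.4%), against 17.0% of all 27025 genes with a window and 14.8% of the genes named in the table. Of the heat-inducible members (a list of 12, of which 9 had a window) 8 had a match, against 6 of the other 37 members with a window (16.2%). The longer run GAANNTTCNNGAA or TTCNNGAANNTTC, in which 3 units alternate, was found for 4 of the 46 members (8.7%), against 0.662% of all genes with a window. Hspd1 and Hspe1 share the same site, which is counted for each of them here and in the counts above. Hspa1a and Hspa1b, identical at 247 of 250 bases before their starts, have the same match and were also counted separately above. A match describes these letters in these windows and is not a measured binding site.

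Hspd1 and Hspe1 lie head to head on chromosome 1, and 3 overlapping matches lie before the start of Hspe1 and before 1 of the RefSeq starts of Hspd1. The 30 bases around them are at chr1:55088053-55088082 (plus strand, with Hspe1 to the right). The match before the RefSeq starts of Hsph1 is shown in the same way at chr5:149636351-149636380 (minus strand). GENCODE M21 begins Hsph1 further upstream, at 149636376, so by that annotation this match lies inside the gene. Matches are in capitals.
Hspd1 to Hspe1: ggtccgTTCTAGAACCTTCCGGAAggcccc
Hsph1: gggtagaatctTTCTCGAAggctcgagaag
The 250 bases before the starts of Hspb1, Hspa1a, Hspa1b and Dnajb1 are given 5′ to 3′ on each gene's own strand, again with matches in capitals, to set Dnajb1, Hspb1 and Hspa1b, raised in several clusters, beside Hspa1a, the near copy of Hspa1b that was raised in cluster 11 alone. They lie at chr5:135887669-135887918 (plus strand) for Hspb1, chr17:34972157-34972406 (minus) for Hspa1a, chr17:34959239-34959488 (minus) for Hspa1b and chr8:83607925-83608174 (plus) for Dnajb1.
Hspb1: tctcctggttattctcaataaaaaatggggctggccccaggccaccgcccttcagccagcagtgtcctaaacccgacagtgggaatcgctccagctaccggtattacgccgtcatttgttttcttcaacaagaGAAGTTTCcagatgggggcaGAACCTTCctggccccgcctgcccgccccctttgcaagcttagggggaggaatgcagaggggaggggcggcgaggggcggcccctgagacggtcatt
Hspa1a: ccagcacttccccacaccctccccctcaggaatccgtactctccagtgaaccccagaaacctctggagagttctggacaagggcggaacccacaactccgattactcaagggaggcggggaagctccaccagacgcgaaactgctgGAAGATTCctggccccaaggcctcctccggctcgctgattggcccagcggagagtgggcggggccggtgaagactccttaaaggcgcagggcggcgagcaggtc
Hspa1b: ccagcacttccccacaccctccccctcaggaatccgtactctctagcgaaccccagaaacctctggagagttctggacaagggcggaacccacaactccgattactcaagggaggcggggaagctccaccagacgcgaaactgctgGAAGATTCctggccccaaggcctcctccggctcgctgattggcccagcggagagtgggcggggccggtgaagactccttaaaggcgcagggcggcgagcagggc
Dnajb1: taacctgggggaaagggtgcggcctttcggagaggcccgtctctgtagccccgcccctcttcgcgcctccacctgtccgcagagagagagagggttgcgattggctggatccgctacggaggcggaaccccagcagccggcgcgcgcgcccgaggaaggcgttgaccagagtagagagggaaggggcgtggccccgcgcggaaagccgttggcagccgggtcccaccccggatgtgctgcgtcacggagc
Hsph1 has 2 further overlapping matches after its RefSeq starts. The stretches of Hspa1a and Hspa1b are identical at 247 of 250 positions and differ by C44T, T47C and T249G, with the Hspa1a base first and positions counted from 1 at the 5′ end of the printed stretch. Dnajb1, the member raised in most clusters, has no match in its window.

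**Figure D1:**
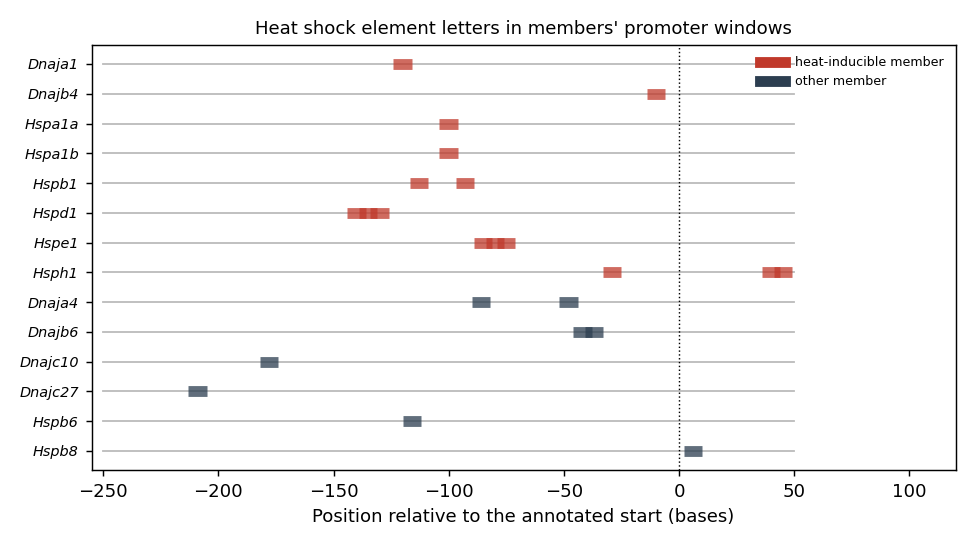
Positions of GAANNTTC or TTCNNGAA matches in the promoter windows of the 14 members that have one, in bases from the annotated start (0), with heat-inducible members in red above the others in dark blue. Matches of Hspd1 and Hspe1 are the same 3 overlapping matches, read from either gene.

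Across all clusters the members were listed 186 times and raised 72 times, and 45 of the 59 members were raised in at least 1 cluster (76.3%), against 78.0% of all genes named. Their share raised somewhere was thus close to that of all genes. Among the members, 25 were raised in exactly 1 cluster (42.4%, against 50.9% of all genes), 14 in exactly 2 (23.7%, against 22.3%) and 14 in none (23.7%, against 22.0%). Being raised in at least 3 clusters was seen for 6 members (10.2%), against 4.75% of all genes. These were Dnajb1, Dnajc10, Hsp90b1, Hspa4, Hspb1 and Hsph1. In 4 clusters, the highest number, only Dnajb1 was raised (1.69% of members, against 0.317% of all genes). Listed folds were mostly modest: in each of the 11 clusters the median fold of the listed members was below the median of all listed genes, for example 2.22 against 2.46 in cluster 9 and 2.01 against 3.27 in cluster 11 per the authors' deposited table.

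**Figure D2:**
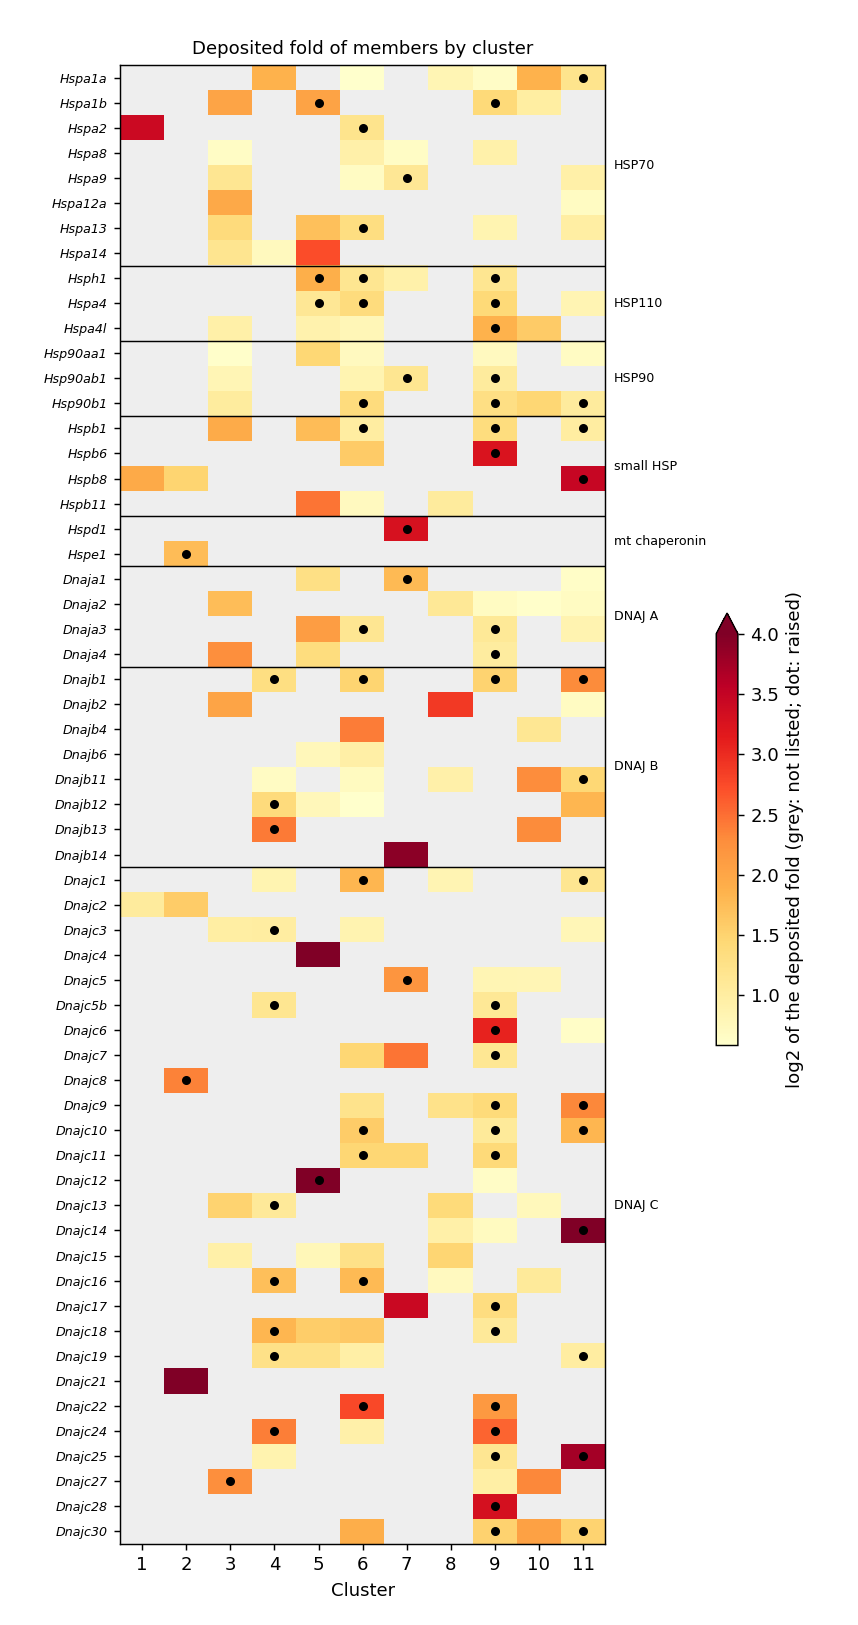
Log2 of the deposited fold of each of the 59 members (rows, by family) in the 11 clusters (columns), with grey for pairs that the table does not list, a dot for raised members and colours capped at 4. Dots are most frequent in cluster 9 (24), and are absent from clusters 1, 8 and 10.

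Cluster 9, 1 of the clusters with epithelial genes raised, had the largest number of raised members. There 33 of 59 members were listed (55.9%), against 38.9% of all genes, and 24 were raised (40.7%), against 26.6% of all genes. Cluster 6, the other cluster with all 7 surface mucous genes raised, also listed 33 members (55.9%, against 36.4%), of which 13 were raised (22.0%, against 20.3%). The fibroblast-like cluster 11 listed 25 (42.4%, against 25.7%) and had 13 raised (22.0%, against 17.0%). In cluster 6 the share raised was thus close to that of all genes. The excess of listed members in these 3 clusters, and of raised members in clusters 9 and 11, was one of small folds. At a fold of at least 3 with the same p, 6 members remained in cluster 9 (10.2%, against 14.1% of all genes), 3 in cluster 6 (5.08%, against 12.0%) and 6 in cluster 11 (10.2%, against 12.4%), so that their share lay below that of all genes.

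Clusters 4, 8 and 10, each with macrophage genes raised, differed in their member counts, and the share of all genes raised differed there too. The macrophage-like cluster 4 listed 15 members (25.4%, against 31.5% of all genes) and had 10 raised (16.9%, against 18.6%). These were 10 of the 39 DNAJ members and 0 of the 20 heat shock members, so the larger group of members held all of them. Clusters 8 and 10 listed 11 (18.6%, against 26.4%) and 13 (22.0%, against 18.9%) members and had 0 raised, against 6.36% of all genes in cluster 8 and 4.90% in cluster 10. Whatever the p, 6 members had a fold of at least 2 in cluster 8 (10.2%, against 20.3%) and 9 in cluster 10 (15.3%, against 15.9%). In cluster 10, 1 listed member had a deposited p of at most 0.05 (7.69% of those listed, against 27% of all listed genes). It was Dnaja2, at a fold of 1.53 per the authors' deposited table. Cluster 8 had none (0%, against 25.8% of all listed genes), so the counts of 0 in both clusters rest on the p.

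In the remaining clusters few members were raised. Cluster 7 listed 11 (18.6%, against 12.1%) and had 5 raised (8.47%, against 3.42% of all genes). Cluster 5 listed 19 (32.2%, against 20.6%) and had 4 raised (6.78%, against 4.32%). In cluster 2, with its erythroid genes, 5 were listed (8.47%, against 9.07%) and 2 raised (3.39%, against 2.89%). Cluster 3 listed 18 (30.5%, against 29.9%) and had 1 raised (1.69%, against 4.0%), and cluster 1 listed 3 (5.08%, against 6.34%) and had 0 raised (against 1.82%). The cells behind each cluster were not analysed here, so the part that the number of cells or their depth has in these counts was not tested.

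**Figure D3:**
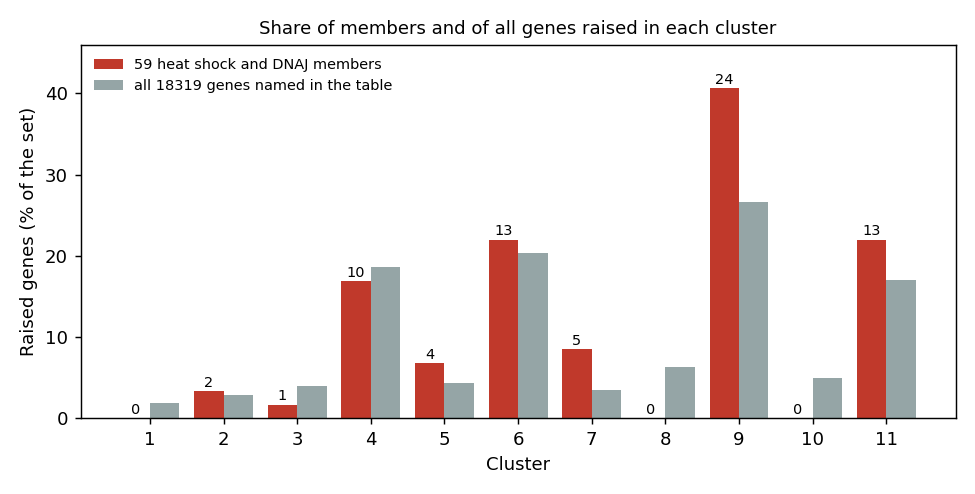
Share of the 59 members (red, left bar) and of all 18319 genes named (grey, right bar) that were raised in each cluster, in percent, with the number of raised members above the red bar. The red bar exceeds the grey one in clusters 2, 5, 6, 7, 9 and 11, by most in cluster 9 (40.7% against 26.6%).

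The 12 members called heat-inducible here are Hspa1a, Hspa1b, Hspa8, Hsp90aa1, Hsp90ab1, Hsph1, Hspb1, Hspd1, Hspe1, Dnaja1, Dnajb1 and Dnajb4. Of these, Hspa8 and Hsp90ab1 are also abundant in unstressed cells and are induced further by heat. Hspa8, the main cytosolic HSP70 of unstressed cells, was listed in clusters 3, 6, 7 and 9 at folds of 1.58, 1.90, 1.58 and 1.88 per the authors' deposited table and was raised in none. It nevertheless stood 11th of 6664 genes by p in cluster 6 and 52nd of 7131 in cluster 9. Of the 2 thresholds, it missed the one on the fold in these clusters.

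Hspa1b was raised in cluster 5 at a fold of 4.09 and in cluster 9 at 2.64 per the authors' deposited table. Its values in clusters 3 and 10, 4.03 and 1.99 per the authors' deposited table, missed the threshold on p. Hspa1a was listed in clusters 4, 6, 8, 9, 10 and 11 with folds of 3.64, 1.503, 1.76, 1.57, 3.62 and 2.30 per the authors' deposited table, and of these only cluster 11 counted as raised. No cluster had both genes raised, although clusters 9 and 10 listed both. Their longest reading frames are 99.4% identical, while the last 300 bases of their transcripts aligned at 49.8% identity. The sources used here do not say how reads that fit both were assigned, so the split between them is uncertain. Hspa1a lies on chromosome 17 from 34969190 to 34972156 and Hspa1b from 34956436 to 34959238 (GENCODE M21, GRCm38).

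**Figure D4:**
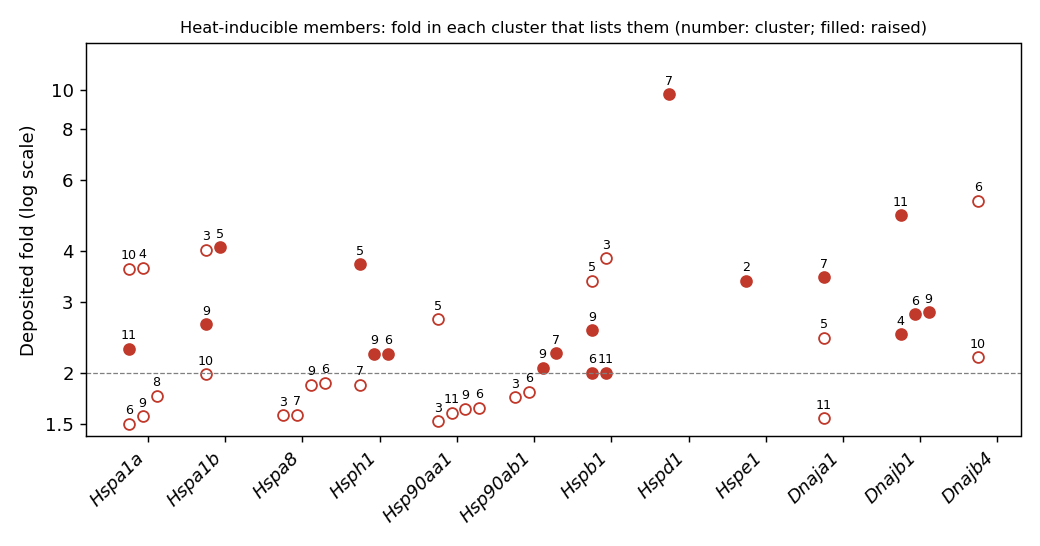
Deposited folds (log axis) of the 12 heat-inducible members in every cluster that lists them, with the cluster number above each point, filled points for raised and open points for not raised, and a dashed line at a fold of 2. Hspd1 and Hspe1 each have a single point, in clusters 7 and 2, while Hsp90aa1 and Hspa8 have open points in 5 and 4 clusters.

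The other HSP70 genes had fewer calls. The testis-enriched Hspa2 was raised in cluster 6 at 2.31 per the authors' deposited table, and its larger fold in cluster 1, 10.57 per the authors' deposited table, missed the threshold on p. Mitochondrial Hspa9, the HSP70 of the import motor, was raised in cluster 7 at 2.19 and stood at 1.59 in cluster 6 and 1.92 in cluster 11 per the authors' deposited table. Its fold of 2.23 in cluster 3 per the authors' deposited table missed the threshold on p. Hspa13, an HSP70 relative of the microsomes, was raised in cluster 6 at 2.50 per the authors' deposited table. Hspa14, the HSP70 of the ribosome-associated complex, and Hspa12a, a distant relative, were listed in 3 and 2 clusters and raised in none.

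The HSP110 genes, which release nucleotide from HSP70, had calls in clusters 5, 6 and 9 and in no other. In cluster 5, Hsph1 had a fold of 3.72, Hspa4 of 2.18 and Hspa4l of 1.85 per the authors' deposited table. Corresponding folds were 2.24, 2.57 and 1.73 in cluster 6 and 2.24, 2.67 and 3.61 in cluster 9 per the authors' deposited table. All of these were raised except Hspa4l in clusters 5 and 6, whose fold was under 2, so that 2, 2 and 3 of the 3 genes were raised there, against 4.32%, 20.3% and 26.6% of all genes. Outside these clusters the p or the fold missed its threshold: Hsph1 had 1.87 in cluster 7, Hspa4 had 1.78 in cluster 11, and Hspa4l had 1.92 in cluster 3 and 3.03 in cluster 10 per the authors' deposited table. Hsph1 lies on chromosome 5 from 149614287 to 149636376.

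Hsp90b1, the HSP90 of the endoplasmic reticulum, was raised in clusters 6, 9 and 11 at folds of 2.58, 2.46 and 2.07 per the authors' deposited table. Cytosolic Hsp90ab1 was raised in clusters 7 and 9 at 2.24 and 2.06 and was listed in clusters 3 and 6 at 1.74 and 1.80 per the authors' deposited table. It was 16th of 6664 genes by p in cluster 6, 21st of 5474 in cluster 3 and 23rd of 2217 in cluster 7. The inducible Hsp90aa1 was listed in clusters 3, 5, 6, 9 and 11 with folds of 1.52, 2.71, 1.64, 1.63 and 1.60 per the authors' deposited table and was raised in none, since the p of cluster 5 was above 0.05. Like Hspa8, Hsp90ab1 thus had high places by p at folds close to or under 2.

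Small heat shock genes were raised in clusters 6, 9 and 11. Hspb1, the HSP27 of epithelia and many stressed cells, was raised in clusters 6, 9 and 11 with folds of 2.004, 2.55 and 2.01 per the authors' deposited table. In clusters 6 and 11 it passed the fold threshold narrowly, and its folds in clusters 3 and 5, 3.84 and 3.38 per the authors' deposited table, missed the threshold on p. Hspb8, which works with Bag3 in the autophagy of damaged proteins, was raised in cluster 11 at 11.04 per the authors' deposited table, 89th of 4710 by p. Hspb6, known from smooth muscle, was raised in cluster 9 at 9.46 per the authors' deposited table, and at 3.02 in cluster 6 its p was above 0.05. Hspb11, a subunit of the intraflagellar transport machinery, was listed in 3 clusters and raised in none.

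The mitochondrial chaperonin pair was raised in different clusters. Hspd1, the chamber, was listed in cluster 7 alone, at a fold of 9.73 per the authors' deposited table, and was raised there, 774th of 2217 genes by p. Hspe1, its lid, was listed in cluster 2 alone, at 3.38 per the authors' deposited table, and was raised there. The genes are on chromosome 1 from 55077835 to 55088243 and from 55088132 to 55091307, so their annotations overlap. The matches printed above lie beside the overlap, inside this annotation of Hspd1 and before that of Hspe1. Pseudogene names stand in the table for 3 members. Hspd1-ps3 was listed in cluster 7, like Hspd1, without being raised. Dnajc19-ps was raised in clusters 6 and 9 and Dnajb6-ps in cluster 9, where Dnajc19 and Dnajb6 were not raised. Reads that fit a member and its pseudogene could not be separated here.

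Of the DNAJ class A genes, which pair with HSP70 in the cytosol or mitochondria, Dnaja1 was raised in cluster 7 at 3.44 per the authors' deposited table. Mitochondrial Dnaja3 was raised in clusters 6 and 9 at 2.23 and 2.14, and Dnaja4 in cluster 9 at 2.02, per the authors' deposited table. Dnaja3 overlaps Vasn on the same strand, so reads of these genes may not be separable. Larger folds of Dnaja3 in cluster 5 (4.28) and of Dnaja4 in cluster 3 (4.80) per the authors' deposited table missed the threshold on p. Dnaja2 was listed in 5 clusters and raised in none. In class B, Dnajb1, the classical inducible partner of HSP70, was raised in clusters 4, 6, 9 and 11 at folds of 2.49, 2.79, 2.83 and 4.91 per the authors' deposited table. The fibroblast-like cluster 11 thus had its highest fold. The macrophage-like cluster 4 and clusters 6 and 9, with their epithelial genes, had it raised too. Dnajb1 lies on chromosome 8 from 83608193 to 83612653.

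Other class B genes had 1 call or none. Dnajb13, known from the flagellar radial spoke, and Dnajb12, of the endoplasmic reticulum membrane, were raised in cluster 4 at 5.36 and 2.61 per the authors' deposited table. Dnajb11, a soluble J protein of the endoplasmic reticulum, was raised in cluster 11 at 2.71 per the authors' deposited table. Larger folds of Dnajb11 in cluster 10 (4.87) and of Dnajb12 in cluster 11 (3.51) per the authors' deposited table missed the p threshold. The heat-inducible Dnajb4 had 5.32 in cluster 6 and 2.19 in cluster 10 per the authors' deposited table, both with a p above 0.05. Dnajb2, Dnajb6 and Dnajb14 were listed in 3, 2 and 1 clusters and raised in none. Dnajb13 overlaps Ucp2 on the opposite strand, and the sources used here do not say whether the counting used strand.

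Class C, the largest and most varied class, held the members of largest fold. Dnajc12, a cochaperone of the aromatic amino acid hydroxylases in humans, had a fold of 32.2 in cluster 5 per the authors' deposited table and was 11th of 3765 genes there by p. It was listed elsewhere only in cluster 9, at 1.57 with a p above 0.05 per the authors' deposited table. Dnajc14, a membrane J protein of the endoplasmic reticulum, had 27.6 in cluster 11 per the authors' deposited table, 1694th of 4710 genes by p. Dnajc14 overlaps Sarnp on the same strand, so reads of the 2 genes may not be separable. Dnajc12 lies on chromosome 10 from 63382443 to 63410576.

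In the epithelial cluster 9, 13 of the 27 class C genes were raised (48.1%, against 26.6% of all genes). Dnajc28 had the largest fold there, 9.82, followed by Dnajc6 (auxilin, which uncoats clathrin vesicles) at 8.38 and Dnajc24, of the diphthamide pathway, at 5.90 per the authors' deposited table. By p these genes stood 4363rd, 4372nd and 2652nd of 7131. Dnajc22 was raised at 6.79 in cluster 6 and 4.43 in cluster 9 per the authors' deposited table. It was listed in no other cluster, and so not in cluster 3, which also had epithelial genes raised. In cluster 6, Dnajc1, Dnajc16, Dnajc10 and Dnajc11 were also raised, at folds between 2.75 and 3.52 per the authors' deposited table. Dnajc11, of the mitochondrial inner membrane organising system, was raised in cluster 9 too, at 2.64 per the authors' deposited table.

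Cluster 4 had 7 of the 27 class C genes raised (25.9%, against 18.6% of all genes). Dnajc24 had the largest fold of these at 5.27, with Dnajc18 at 3.54 and Dnajc16 at 3.30, per the authors' deposited table. The endosomal Dnajc13, the import motor subunit Dnajc19, the cysteine-string paralog Dnajc5b and Dnajc3, a cochaperone of the endoplasmic reticulum, had folds between 2.01 and 2.39 per the authors' deposited table. Dnajc5, the cysteine-string protein of secretory vesicles, was raised in cluster 7 at 4.59 per the authors' deposited table. Dnajc8, which associates with the spliceosome, was raised in cluster 2 at 5.14, and Dnajc27, which joins a J domain to a Rab-like GTPase, in cluster 3 at 4.80, per the authors' deposited table.

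In cluster 11, 7 of the 27 class C genes were raised (25.9%, against 17.0% of all genes). After Dnajc14 came Dnajc25 at 13.3, a J protein of the endoplasmic reticulum, and Dnajc9, a histone chaperone cofactor, at 5.004 per the authors' deposited table. Dnajc25 overlaps the coding gene Gm20503 on the same strand, so reads of these genes may not be separable. Dnajc9 was raised in cluster 9 as well, at 2.64 per the authors' deposited table. Dnajc10, the disulfide reductase of the endoplasmic reticulum, was raised in clusters 6, 9 and 11 at 2.99, 2.1 and 3.53 per the authors' deposited table. Dnajc2, Dnajc4, Dnajc15 and Dnajc21 were raised nowhere, and large folds among them, such as 30.3 for Dnajc21 in cluster 2 and 17.2 for Dnajc4 in cluster 5 per the authors' deposited table, missed the threshold on p.

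Grouped by compartment, a list of 7 members of the endoplasmic reticulum was listed whole in cluster 11, and 5 of the 7 were raised (71.4%, against 17.0% of all genes). They were Dnajc25, Dnajc10, Dnajb11, Dnajc1 and Hsp90b1. The other 2, Hspa13 and Dnajc3, had folds of 1.96 and 1.74 per the authors' deposited table, each with a p of at most 0.05. Cluster 6 listed 6 of the 7 and had 4 raised (against 20.3%), and cluster 9 listed 4 and had 3 raised (against 26.6%). In each remaining cluster at most 1 of the 7 was raised. The list leaves out the membrane proteins Dnajb12, Dnajb14, Dnajc14, Dnajc16 and Dnajc18 of the same compartment. With these 5, added after their values were seen, 4, 5, 4 and 6 of 12 were raised in clusters 4, 6, 9 and 11 (33.3%, 41.7%, 33.3% and 50%, against 18.6%, 20.3%, 26.6% and 17.0% of all genes). Serpinh1, the collagen chaperone of the same compartment, was listed in cluster 11 alone, at a fold of 77.2 per the authors' deposited table.

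The 10 mitochondrial members had 4 raised in cluster 9, namely Dnajc28, Dnajc30, Dnajc11 and Dnaja3 (40%, against 26.6% of all genes). Clusters 6, 7 and 11 had 2 of the 10 each (20%, against 20.3%, 3.42% and 17.0%), a share close to that of all genes in clusters 6 and 11. In cluster 7 these were Hspd1 and Hspa9. The 42 members on neither list had 8, 7, 17 and 6 raised in clusters 4, 6, 9 and 11 (19.0%, 16.7%, 40.5% and 14.3%), against the shares of all genes given above for each cluster. These 42 were set against the shorter list of the endoplasmic reticulum and so include its membrane proteins named above. Of those, Dnajc18, Dnajc16 and Dnajb12 were among the raised in cluster 4, Dnajc16 in cluster 6, Dnajc18 in cluster 9 and Dnajc14 in cluster 11.

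The rest of the chaperone network was read from 2 lists. Of 29 heat shock factors and cochaperones, 27 were named in the table and 21 were raised in at least 1 cluster (77.8%, against 78.0% of all genes). Cluster 6 had 8 of the 27 raised (29.6%, against 20.3% of all genes), cluster 9 had 7 (25.9%, against 26.6%), cluster 11 had 5 (18.5%, against 17.0%) and cluster 4 had 4 (14.8%, against 18.6%). Heat shock factor 1 (Hsf1), the master regulator of the response, was raised in cluster 6 at 3.39 per the authors' deposited table, and its folds of 2.57 in cluster 4 and 3.54 in cluster 8 had a p above 0.05. Bag3, its target and the partner of Hspb8, was raised in clusters 6 and 9 at 3.55 and 2.09 per the authors' deposited table and was not listed in cluster 11, where Hspb8 was raised. The HSP90 cochaperone Ptges3 (p23) was raised in clusters 6, 9 and 11 at 2.86, 3.01 and 4.68 per the authors' deposited table. Fkbp5, a glucocorticoid-induced HSP90 cochaperone, was raised in clusters 4 and 8 at 4.26 and 7.86 per the authors' deposited table.

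Cluster 7 had 3 of the 8 subunits of the cytosolic chaperonin raised, against 3.42% of all genes. The subunits Cct4, Cct5 and Tcp1 had folds of 9.07, 8.91 and 8.15 per the authors' deposited table, close to the 9.73 of Hspd1 there. By p these subunits stood 502nd, 470th and 312th of 2217 genes, and Hspd1 stood lower, 774th. Stip1, which links HSP70 to HSP90, was raised in cluster 7 at 2.89 per the authors' deposited table, beside Hsp90ab1, Dnaja1, Hspa9 and Dnajc5. Cluster 5 had the subunits Cct2 and Cct6a raised, at 4.45 and 3.81 per the authors' deposited table, and the HSP90 cochaperone Fkbp4 at 6.42 per the authors' deposited table. No subunit was raised in clusters 2, 3, 4, 8 and 10.

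Immediate-early genes, transcription factors and regulators that are switched on quickly by stimulation and by tissue dissociation, were set beside the heat-inducible members. In cluster 10, 11 of 15 immediate-early genes were raised (73.3%, against 4.90% of all genes) and 0 of 12 heat-inducible members. In cluster 8 these counts were 6 of 15 (40.0%, against 6.36%) and 0 of 12, and in cluster 4 they were 6 of 15 (40.0%, against 18.6%) and 1 of 12, Dnajb1. In cluster 9, 0 of 15 immediate-early genes and 5 of 12 heat-inducible members (41.7%, against 26.6%) were raised, and clusters 6 and 11 each had 0 of 15 and 3 of 12 (25%, against 20.3% and 17.0%). Cluster 7 had 2 of 15 and 3 of 12 raised (13.3% and 25%, against 3.42%), and cluster 5 had 0 of 15 and 2 of 12 (16.7% of the heat-inducible members, against 4.32%). The part of dissociation in either list was not tested.

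**Figure D5:**
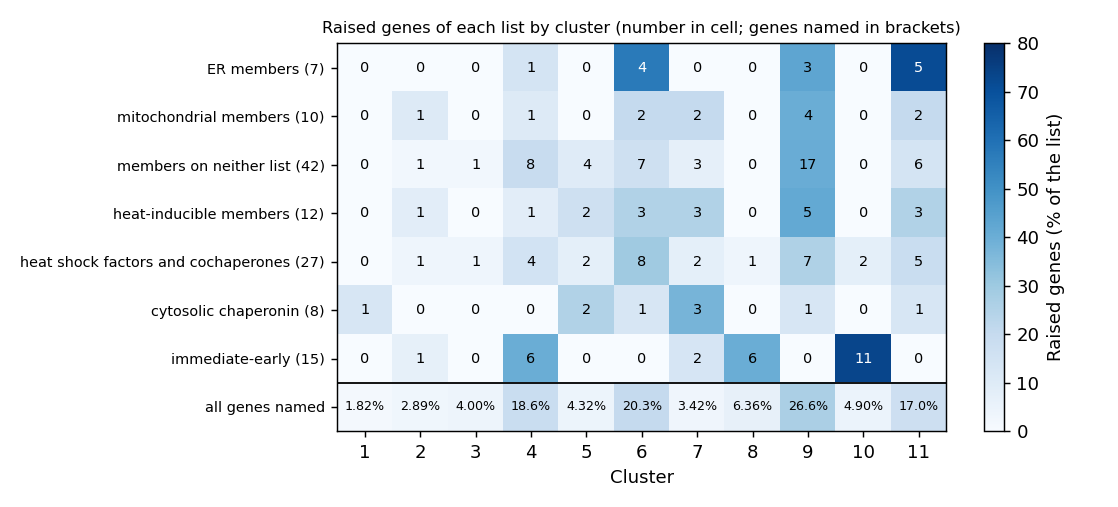
Number of raised genes of each list (rows, with the number of genes named in brackets) in each cluster (columns), shaded by the percent of the list, with the percent of all genes raised in the bottom row. The list of 7 endoplasmic reticulum (ER) members reaches 5 in cluster 11, cytosolic chaperonin subunits 3 of 8 in cluster 7 and immediate-early genes 11 of 15 in cluster 10.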

How the data were processed

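Droplet libraries of cells from 2 fresh tumors were made on inDrop by the TruDrop protocol, per the labels' protocols, and each sample took its group from its title. The submitters' processing notes name mm10, STAR 2.7.3a, Partek and DESeq2 3.5 without a role. Cell filters, doublet treatment, clustering and depth were not stated in what was read here. The authors deposited 1 table that holds, per the file headers, a linear fold (ratio) for every listed gene of every cluster. Beside it stands, per the file headers, a p-value. It holds 0 columns of per-sample values. The test behind that p-value was not stated and the table shows no samples as replicates, so it served as a filter and is not printed.

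Members and lists were chosen with earlier results of these data known. Named were the 4 raised members of largest fold in each cluster, members raised in at least 3 clusters, and 12 heat-inducible members. Further members and genes were chosen after their values were seen. Counts of members were read beside the share of all 18319 genes, with no test. The counting was tested on simulated tables (Python 3.11.15, pandas 2.3.3). Alternatives were folds of at least 1.5 and 3, a p of at most 0.001, no p threshold, and Hspa1a with Hspa1b as 1 member. Positions are from GENCODE M21 (GRCm38, 59 of 59 members matched by symbol; 20 overlap another coding gene); transcripts were aligned with Biopython 1.88.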

Additional observations from a re-analysis of the deposited data

How the results depend on the processing

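Counting Hspa1a and Hspa1b as 1 member could not change the count of any cluster, since no cluster had both raised. It gave 44 of 58 members raised in at least 1 cluster (75.9%, against 78.0% of all genes). For the other alternatives, the counts given are those that moved by more than 1.5 times, or to or from 0. Without a threshold on p the raised members numbered 3, 5, 12, 15, 20, 9, 6 and 9 in clusters 1, 2, 3, 5, 6, 7, 8 and 10 (5.08%, 8.47%, 20.3%, 25.4%, 33.9%, 15.3%, 10.2% and 15.3%, against 5.65%, 7.39%, 22.0%, 16.3%, 25.9%, 10.1%, 20.3% and 15.9% of all genes). At a p of at most 0.001 they numbered 0, 6, 6 and 3 in clusters 3, 4, 6 and 7 (0%, 10.2%, 10.2% and 5.08%, against 0.786%, 12.7%, 11.6% and 1.19%). At a fold of at least 1.5 with the same p they numbered 3, 24, 1 and 24 in clusters 3, 6, 10 and 11 (5.08%, 40.7%, 1.69% and 40.7%, against 4.78%, 27.1%, 5.11% and 20.6%). At a fold of at least 3 they numbered 4, 3, 3, 6 and 6 in clusters 4, 6, 7, 9 and 11 (6.78%, 5.08%, 5.08%, 10.2% and 10.2%, against 12.1%, 12.0%, 2.01%, 14.1% and 12.4%), and 25 members passed in at least 1 cluster (42.4%, against 60.8% of all genes). Members nearest to the fold threshold were, inside it, Dnajc19 in cluster 11 at 2.003 and Hspb1 in clusters 6 and 11 at 2.004 and 2.007, and outside it Hspa13 in cluster 11 and Dnajc27 in cluster 9, both at 1.96, per the authors' deposited table. Hspb1 counts as raised in 3 clusters through these 2 narrow passes. The excess over all genes in clusters 9 and 11 thus depends on the fold threshold. In cluster 6 the share at the main thresholds was close to that of all genes (22.0%, against 20.3%). It lay above or below that of all genes depending on both thresholds. In clusters 5 and 7 the members' share exceeded that of all genes under every alternative threshold. The depth per cell is unknown. No paired analysis was possible because the table has no per-sample values.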
